A study of Rattus norvegicus with 6 samples.

Results

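The subunits of the GABA-A receptor described here are Gabra2, Gabra3, Gabra4, Gabra5, Gabrb1, Gabrb2 and Gabrd, measured by mRNA microarray in rat hippocampal tissue. They were chosen by name: every non-control probe whose accession belongs to one of these genes was taken, which gave 7 probes for 7 genes, 1 probe each, out of 30367 probes and 15168 named genes on the array. The AD group (n = 3 arrays) consisted of male Sprague Dawley (SD) rats given Aβ1–42 oligomers by intracerebroventricular injection, and the Sham group (n = 3 arrays) of male SD rats given the vehicle in both lateral ventricles. The study's methods call the animals adult and give no exact age. The model is an acute injection without a transgene, and the labels do not tie a sample to an animal, so all p-values cover only the variation among the 6 samples, part of which may be technical. In whole tissue, fewer cells of a type and less RNA per cell cannot be told apart.

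GABA-A receptors are pentameric chloride channels opened by GABA, the main inhibitory transmitter of the brain. Alpha and beta subunits together form the GABA site. A gamma subunit gathers receptors at synapses, whereas receptors with the delta subunit Gabrd lie outside synapses and carry tonic inhibition. In the hippocampus Gabra5 is known for tonic inhibition of pyramidal cells, and Gabra4 and Gabrd for that of dentate granule cells.

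Of these subunits Gabra3 alone passed the test, 1.37-fold lower in AD. The beta subunit Gabrb2 was lower by a similar amount and did not pass. The alpha subunits Gabra2, Gabra4 and Gabra5 had changes close to 0, and Gabrb1 and Gabrd had slightly higher means in AD that did not pass. The count of 1 in 7 is 14.3%, beside 12.6% of all 22768 tested probes at an adjusted p under 0.05 (limma, Benjamini-Hochberg over all tested probes), so the share of these subunits called was near that of the whole array. The share of calls that were higher in AD was 33.1% and moved with the scaling, to 53.2% when the percentile was that of detected probes alone and 17.4% under normexp background correction. Of all tested probes 8.40% were called lower and 4.15% higher, and of these subunits 1 was called lower and 0 higher (limma; 2 at an unadjusted p under 0.05, Gabra3 and Gabrb2, and also 0 called higher by the methods' t-test). The median log2 change was -0.05 over the 7 subunits and -0.01 over all tested probes. The groups did not overlap for 2 of the 7, Gabra3 and Gabrb2, both with AD below, beside 39.0% of all tested probes without overlap (23.4% with AD below and 15.6% with AD above).

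Levels are given as the log2 processed signal minus the 75th percentile of the array, so that 0 is that percentile. All 7 probes were well above background on all 6 arrays. Since each probe binds its target with its own strength, levels are compared between arrays and not between genes. The 75th percentile was 795 to 932 on the AD arrays, 753 and 755 on Sham replicates 1 and 2 and 429 on Sham replicate 3, which was scanned on another day than the other 5 arrays. The AD arrays were scanned together and Sham replicates 1 and 2 together in a separate scan of that same day, so no scan held both groups, and effects of scan cannot be told apart from those of group. Sham replicate 3 correlated across tested probes with the other Sham arrays at r of 0.979 and 0.982, whereas those 2 correlated at 0.993. Leaving out any single one of AD replicates 1, 2 and 3 or Sham replicates 1 and 2 left 0 to 2 called probes on the whole array (limma; 4856 to 6442 at an unadjusted p under 0.05, beside 7124 with all arrays), and leaving out Sham replicate 3 raised the count from 2858 to 4468.

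Gabra3, an alpha subunit that forms a benzodiazepine-sensitive receptor with beta and gamma subunits, had levels of -3.49, -3.53 and -3.48 on AD replicates 1 to 3 and of -2.92, -3.12 and -3.09 on Sham replicates 1 to 3. All AD values lay below all Sham values, and the AD arrays differed little among themselves (SD 0.027, against 0.11 in Sham). The log2 change was -0.46 ± 0.09 (SE, n = 3 per group, limma adjusted p = 0.0322), with a 95% confidence interval of -0.68 to -0.24. Within the first scan day, without Sham replicate 3, it was -0.48 ± 0.09 (limma adjusted p = 0.0293). Before scaling, its signal was 68.8 to 83.3 on the AD arrays and 50.2 to 99.5 on the Sham arrays, so that the unscaled groups overlapped. The direction held in all 20 alternative settings. Other filters, the replicate and slide position blocks and the methods' t-tests keep the same log2 change, so they could not alter the direction. The call did not hold in all settings. It was lost, among others, with the 75th percentile of detected probes (-0.37, adjusted p = 0.0557) and under normexp correction (-0.42, adjusted p = 0.0534). With scan as a random block (-0.45, adjusted p = 0.234) it was lost too, as it was when any array other than Sham replicate 3 was left out (lowest adjusted p = 0.0755).

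Gabra2, the alpha subunit known for receptors on the axon initial segment of pyramidal cells, had levels of -2.40, -2.32 and -2.40 in AD and of -2.12, -2.19 and -2.55 in Sham. The lowest of the 6 values was that of Sham replicate 3, so the groups overlapped. The log2 change was -0.09 ± 0.13 with a 95% confidence interval of -0.41 to 0.24 (limma adjusted p = 0.698). Without Sham replicate 3, where both groups were scanned on the same day, the change was -0.22 ± 0.08 and did not pass either (limma adjusted p = 0.0993). Without Sham replicate 1 it was 0.00, so that a single Sham array set its size.

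Gabra4, which pairs with Gabrd in extrasynaptic receptors, had levels of -1.23, -1.25 and -1.34 in AD and of -1.43, -1.19 and -1.17 in Sham. The groups overlapped and the log2 change was -0.01 ± 0.10, with a 95% confidence interval of -0.26 to 0.24 (limma adjusted p = 0.953). The sign of a value this small turned in 6 of 20 settings, among them the 75th percentile over detected probes (0.07). Some of the 20 keep the same difference of group means and could not turn it. Scan day as a fixed block and leaving out Sham replicate 3, which both turned it, are the same fit. Gabra5, a tonic subunit of pyramidal cells, had levels of -0.64, -0.56 and -0.65 in AD and of -0.63, -0.48 and -0.59 in Sham. Its log2 change was -0.05 ± 0.09 with a 95% confidence interval of -0.26 to 0.16 (limma adjusted p = 0.732), the narrowest interval among the 7 subunits, and it was 0.03 with the 75th percentile over detected probes. On a linear scale this interval runs from 0.838 to 1.12 times the Sham level, and that of Gabra4 from 0.833 to 1.18 times.

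Gabrb1, a beta subunit, had levels of 1.78, 1.95 and 1.83 in AD and of 1.80, 1.60 and 1.63 in Sham. AD replicate 1 lay below Sham replicate 1, so the groups overlapped, and the log2 change of 0.18 ± 0.10 did not pass (95% confidence interval -0.06 to 0.42, limma adjusted p = 0.275). Gabrb2, a beta subunit of many synaptic receptors, had levels of -1.45, -1.59 and -1.50 in AD and of -1.24, -1.19 and -0.77 in Sham. All AD values lay below all Sham values, and Sham replicate 3 stood above the other Sham arrays. The log2 change was -0.44 ± 0.15, or 1.36-fold lower, with a 95% confidence interval of -0.80 to -0.09 (limma adjusted p = 0.0984). Within the first scan day it was -0.29 ± 0.08 (limma adjusted p = 0.0594). Its size thus depended on Sham replicate 3, and it did not pass in either case. The unscaled signal was 265 to 330 in AD and 252 to 330 in Sham.

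Gabrd, the delta subunit of extrasynaptic receptors, had levels of -0.46, -0.39 and -0.63 in AD and of -0.78, -0.83 and -0.43 in Sham. The Sham values were split, with replicate 3 as high as the upper AD arrays and replicates 1 and 2 below all of AD. The log2 change was 0.19 ± 0.14 with a 95% confidence interval of -0.14 to 0.53 (limma adjusted p = 0.390). Within the first scan day it was 0.32 ± 0.10 and did not pass (limma adjusted p = 0.0799). Markers of dentate granule cells, the hippocampal neurons best known for Gabrd, gave a median log2 change of -0.01 with 0 of 7 called (limma; 2 at an unadjusted p under 0.05, Trpc6 and C1ql2, in opposite directions, and 0 by the methods' t-test with Benjamini-Hochberg adjustment), and their summed level was 3.58 to 3.90 in AD and 3.57 to 3.74 in Sham, relative to the 75th percentile.

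**Figure D1:**
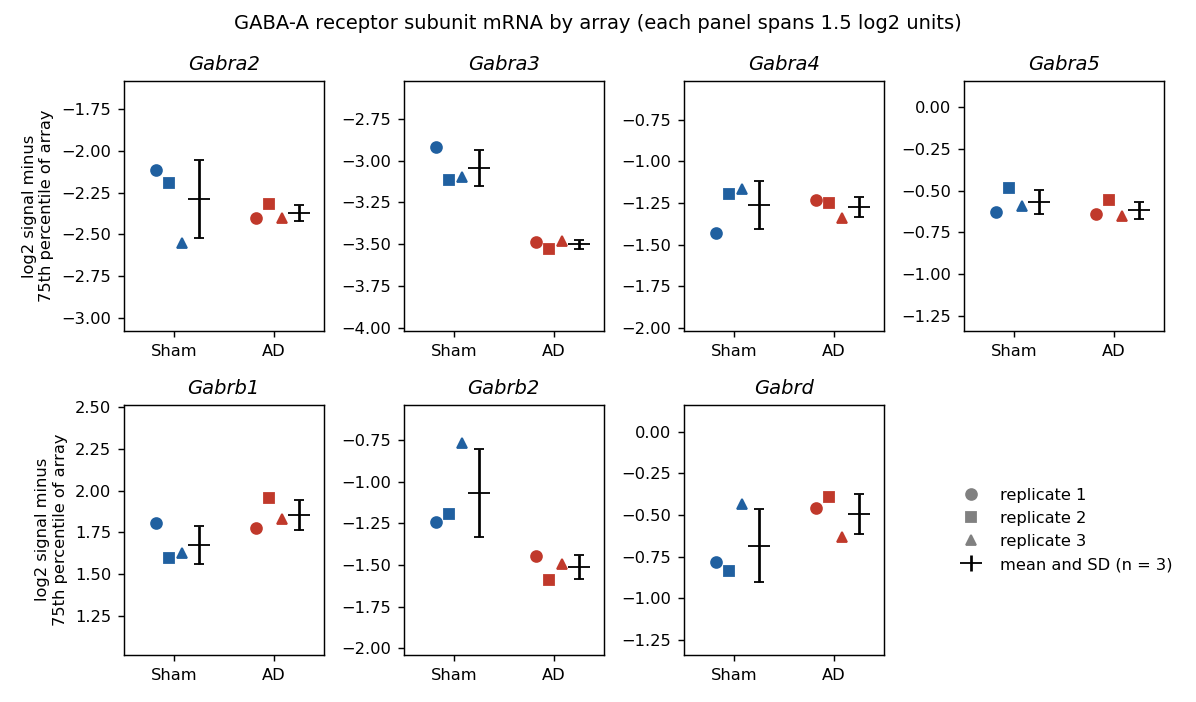
Each panel gives 1 subunit, with the log2 signal minus the 75th percentile of the array on the vertical axis, Sham arrays in blue and AD arrays in red, marker shapes for replicates 1 to 3 and black bars for the mean and SD (n = 3). The AD points lie wholly below the Sham points for Gabra3 and Gabrb2, and Sham replicate 3 (triangle) stands apart from the other Sham arrays for Gabra2, Gabrb2 and Gabrd.

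Of 9 other GABA-A subunit genes described here 2 were bright enough to test and 0 were called (limma; 0 also at an unadjusted p under 0.05 and by the methods' t-test with Benjamini-Hochberg adjustment). Gabrg1, a gamma subunit, gave 0.24 ± 0.13 (limma adjusted p = 0.256) and the theta subunit Gabrq 0.37 ± 0.18 (limma adjusted p = 0.223). Within the first scan day Gabrq passed (0.56 ± 0.12, limma adjusted p = 0.0384).

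The remaining 7 subunits were too dim to test. Gabrg3 and the rho subunits Gabrr1, Gabrr2 and Gabrr3 were not well above background on any array. The same held on 5 of 6 arrays for Gabra6, a subunit typical of cerebellar granule cells, for Gabrp and for Gabre.

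**Figure D2:**
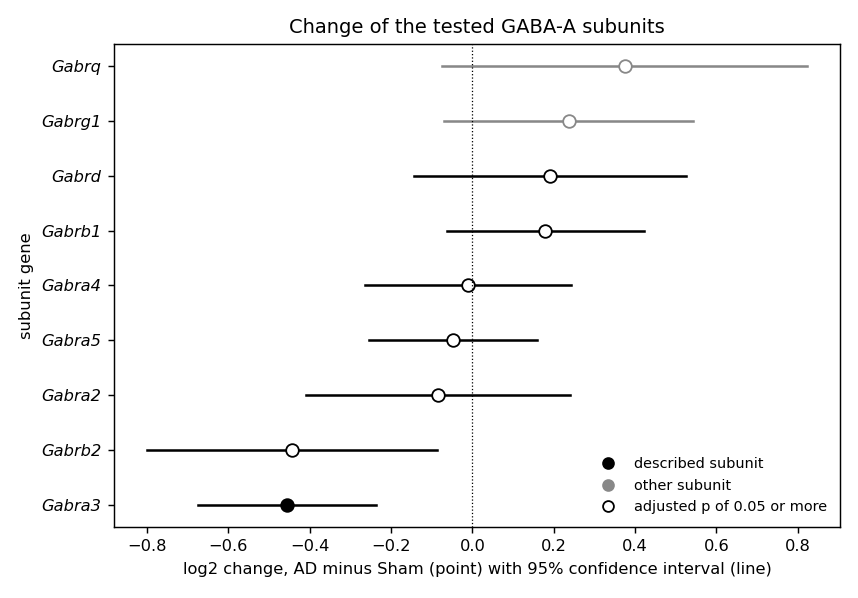
The horizontal axis gives the log2 change (AD minus Sham) of the 9 GABA-A subunits with its 95% confidence interval, and the vertical axis lists the subunits, black for the 7 described and grey for the others, filled where the adjusted p was under 0.05. Gabra3 and Gabrb2 lie at -0.46 and -0.44 and the intervals of the other 7 subunits include 0.

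GABA-A subunit genes lie in clusters, here taken from the order of protein-coding genes in RefSeq on the assembly GRCr8. Gabrb1, Gabra4, Gabra2 and Gabrg1 lie next to each other, as do Gabre, Gabra3 and Gabrq on the X chromosome, with at most 1 other protein-coding gene between neighbours. Because every level depends on the scaling of its array, tested neighbours were also set against each other on the same array, a difference that a single scaling factor per array cannot change. With 3 arrays against 3 the exact permutation test cannot give a p below 0.1, and 4 pairs were compared in this way. The change of Gabra3 minus that of its neighbour Gabrq was -0.83 on the log2 scale, without overlap of the groups, at -5.28 to -5.10 in AD and -4.80 to -3.96 in Sham (exact permutation p = 0.1, two-sided, 0.4 after Benjamini-Hochberg adjustment). The other 3 pairs overlapped, with differences of 0.19 for Gabrb1 minus Gabra4, 0.07 for Gabra4 minus Gabra2 and -0.32 for Gabra2 minus Gabrg1 (exact permutation p = 0.2 to 0.7). None of the 4 pairs passed, and a within-array difference does not tell which subunit of a pair changed.

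The stretch of 250 bases before the annotated start was available from RefSeq (GRCr8) for 6 of the 7 subunits, and Gabra2 had no entry. These windows differ widely in base composition. They are shown for Gabra3 and Gabrb2, whose AD values lay below all Sham values, and for Gabrd, whose mean was higher in AD without passing the test, each 5′ to 3′ on the strand of the gene, with the matches to the motifs searched in capitals.
Gabra3 (chrX:155543871-155544120, minus strand): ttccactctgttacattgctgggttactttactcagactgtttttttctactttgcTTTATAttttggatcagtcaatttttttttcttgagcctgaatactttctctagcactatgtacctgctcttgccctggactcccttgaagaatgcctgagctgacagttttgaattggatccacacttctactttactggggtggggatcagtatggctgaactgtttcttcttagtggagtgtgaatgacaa
Gabrb2 (chr10:27439543-27439792, plus strand): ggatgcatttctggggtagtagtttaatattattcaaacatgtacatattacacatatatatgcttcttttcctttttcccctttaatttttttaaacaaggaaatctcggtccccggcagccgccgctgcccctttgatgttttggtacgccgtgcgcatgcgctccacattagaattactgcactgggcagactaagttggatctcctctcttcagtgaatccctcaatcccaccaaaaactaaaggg
Gabrd (chr5:171252710-171252959, minus strand): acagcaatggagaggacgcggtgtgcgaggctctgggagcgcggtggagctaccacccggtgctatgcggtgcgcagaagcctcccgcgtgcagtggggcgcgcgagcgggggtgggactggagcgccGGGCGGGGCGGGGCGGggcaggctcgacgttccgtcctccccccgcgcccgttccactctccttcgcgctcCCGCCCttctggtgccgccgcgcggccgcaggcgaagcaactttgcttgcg
The Gabra3 window had a G+C content of 40.4% and 0 CpG dinucleotides, and that of Gabrb2 43.2% and 8. The Gabrd window had 74.0% and 35, Gabra4 71.6% and 33 and Gabra5 76.4% and 37, beside a median of 51.2% and 5 over 33469 rat windows of the same length. Gabrb1 lay between these in G+C content, at 49.2%, and had 8 CpG dinucleotides, as many as Gabrb2. The capitals in Gabrd mark GGGCGG, the core of the GC box, found 4 times on either strand, some overlapping. GGGCGG also occurred in Gabra4 and Gabra5 and in 30.5% of all windows. The capitals in Gabra3 mark TATAAA, read on the opposite strand, 194 bases before the start, which 12.9% of all windows hold. Binding motifs of the immediate early factors of the EGR family, GCGTGGGCG (0.478% of all windows) and GCGGGGGCG (2.45%), the latter able to overlap the GC box, and of the cAMP response element, TGACGTCA (1.59%), were searched on both strands and were found in 0 of the 6 windows. A match is a stretch of letters and not a measured binding site.

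Other genes of inhibitory transmission were described from lists, with the brightest tested probe for each gene. Of 24 genes of the inhibitory postsynapse and of GABA-A receptor trafficking 2 were called lower and 0 higher, with a median log2 change of -0.24. The share called was 8.33%, near the 8.40% of all tested probes called lower. At an unadjusted p under 0.05 (limma) there were 13 of the 24, beside 7124 of all 22768 tested probes. The mean was lower in AD for 20 of the 24, beside 51.3% of all tested probes. AD lay wholly below Sham for 16 (23.4% of all tested probes) and wholly above for 2 (15.6%). Insyn2a, which encodes a protein of the inhibitory postsynaptic density, had levels of -0.69, -0.63 and -0.80 in AD and of 0.52, 0.45 and 0.29 in Sham, and fell by 1.13 ± 0.10 on the log2 scale (limma adjusted p = 0.0183). It passed under normexp correction and within the first scan day (-1.06 and -1.19). The call was lost with scan as a random block (limma adjusted p = 0.172), the replicate block (0.0815) and slide position as a block (0.0755). It was also lost when any array other than Sham replicate 3 was left out (lowest limma adjusted p = 0.0514). Ubqln1, whose product binds GABA-A subunits and slows their degradation, fell by 0.39 ± 0.09 (limma adjusted p = 0.0438). It lost the call under normexp correction (limma adjusted p = 0.0526), quantile normalization (0.0765) and with the 75th percentile over detected probes (0.0657). Scan as a random block (0.243), the replicate block (0.120) and slide position as a block (0.0932) removed it too. So did leaving out any array other than Sham replicate 3 (lowest limma adjusted p = 0.0808). Gephyrin (Gphn), a scaffold that anchors GABA-A and glycine receptors, gave 0.16 ± 0.09 and did not pass (limma adjusted p = 0.266). The dimmer probe of Plcl1, which binds GABA-A receptors and guides their trafficking, was called higher (0.64 ± 0.08), whereas its brightest probe lay on the other side of 0 and did not pass (-0.40 ± 0.10, limma adjusted p = 0.0514).

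On the presynaptic side 2 of 7 genes (28.6%) were called lower, beside 8.40% of all tested probes, and 0 higher. The vesicular GABA transporter Slc32a1 had levels of 2.65, 2.53 and 2.86 in AD and of 3.67, 3.54 and 3.43 in Sham, and fell by 0.86 ± 0.12 on the log2 scale (limma adjusted p = 0.0203). The other gene was Gad1, a GABA-synthesizing enzyme (-0.81 ± 0.09, and -0.58 by its dimmer probe). Both passed under the 3 other scalings tried and under normexp correction. Both lost the call with scan as a random block (adjusted p = 0.172 for Gad1 and 0.179 for Slc32a1), with the replicate block and with slide position as a block (limma adjusted p = 0.0815 and 0.0755 for each gene), and when any single array other than Sham replicate 3 was left out (lowest limma adjusted p = 0.0514 for Gad1 and 0.0534 for Slc32a1). Slc32a1 also lost it without a filter on dim probes (adjusted p = 0.0508). Chloride transport sets the direction of the current through the receptor. Of its 8 genes 1 was called lower and 1 higher, beside 8.40% and 4.15% of all tested probes. The neuronal chloride exporter Slc12a5 (KCC2) fell by 0.61 ± 0.15 (limma adjusted p = 0.0496), a value at the threshold, and its dimmer probe gave -0.18. The call was lost with the 75th percentile over detected probes (limma adjusted p = 0.0632) and under quantile normalization (0.0531). The methods' t-test with Benjamini-Hochberg adjustment did not call it either (adjusted p = 0.102). Slc12a5 also failed with scan as a random block (limma adjusted p = 0.238), the replicate block (0.118) and slide position as a block (0.0760). The same held without a filter on dim probes (0.0948) and when any array other than Sham replicate 3 was left out (lowest 0.0725). Carbonic anhydrase Car2, also abundant in oligodendrocytes, rose by 0.55 ± 0.09 (limma adjusted p = 0.0254). Car2 passed under the 3 other scalings and normexp correction. It lost the call with scan as a random block (limma adjusted p = 0.198), the replicate block (0.0895) and slide position as a block (0.0760). The call was also lost without a filter on dim probes (0.0591) and when any array other than Sham replicate 3 was left out (lowest limma adjusted p = 0.0542). Gphn, Plcl1 and Slc12a2 are named here after their values were seen. The chloride importer Slc12a2 gave 0.56 ± 0.15 and did not pass (limma adjusted p = 0.0570), but its dimmer probe did (1.09 ± 0.25, limma adjusted p = 0.0430). Which cells of the tissue gave the values of Slc12a5 and Slc12a2 was not tested. Of the GABA-B receptor genes 0 of 4 were called, with -0.47 ± 0.14 for the receptor subunit Gabbr2 (limma adjusted p = 0.0725) and -0.26 ± 0.18 for the auxiliary subunit Kctd16, and of the glycine receptor subunits 0 of 3, with 0.29 ± 0.18 for Glra1 and 0.17 ± 0.09 for Glrb (limma; at an unadjusted p under 0.05 there was 1 gene, Gabbr2, and by the methods' t-test with Benjamini-Hochberg adjustment there was none in either list).

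**Figure D3:**
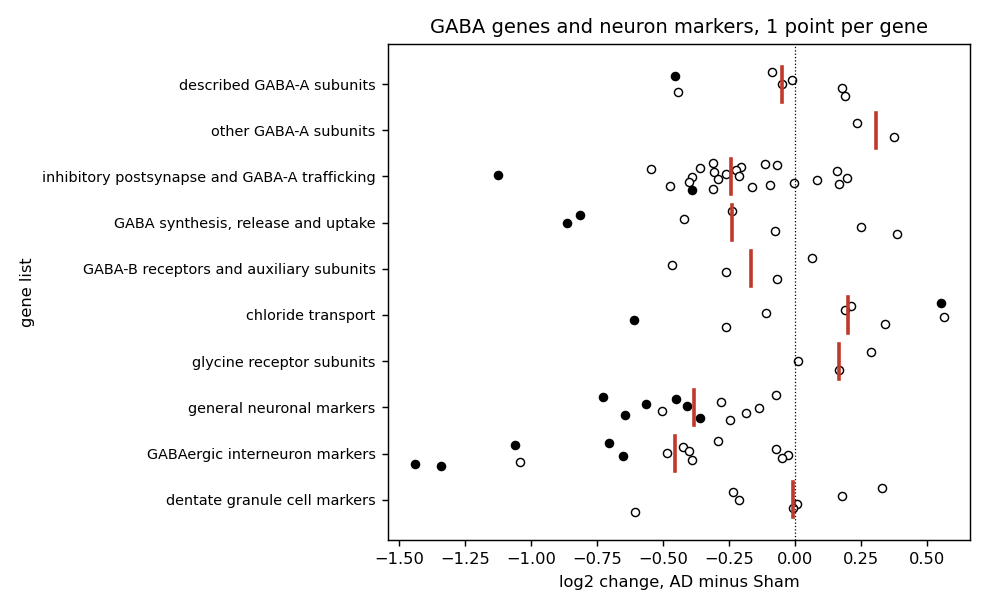
The vertical axis names 10 gene lists and the horizontal axis gives the log2 change, AD minus Sham, with a point per gene that is filled for an adjusted p under 0.05. Medians, drawn as red bars, are -0.05 for the 7 subunits described, -0.24 for the postsynaptic list, -0.38 for general neuronal markers and -0.45 for interneuron markers.

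Markers of the cells that carry these receptors, and of other cells of the tissue, were described in the same way. Of 12 general neuronal markers 6 were called lower, beside 8.40% of all tested probes, and 0 higher, with a median of -0.38 and summed levels of 142 to 156 in AD and 177 to 207 in Sham. Of 14 interneuron markers 5 (35.7%) were called lower and 0 higher, with a median of -0.45 and summed levels of 51.3 to 57.8 in AD and 87.9 to 92.9 in Sham. The 4 of these with the lowest adjusted p were the neuropeptide genes Tac1 (-1.44 ± 0.10), Vip (-1.34 ± 0.11) and Cck (-0.71 ± 0.10) and the transcription factor Dlx1 (-1.06 ± 0.10). Markers of excitatory hippocampal neurons gave 1 lower of 7, Grin2b, with a median of 0.05 and summed levels of 19.4 to 20.1 in AD and 18.4 to 21.2 in Sham, and markers of CA1 and CA3 pyramidal cells 1 lower of 9, Fibcd1, with a median of -0.01 and summed levels of 55.8 to 63.7 in AD and 70.5 to 84.5 in Sham. Of 11 striatal and thalamic markers 2 (18.2%) were called higher, Ppp1r1b and Lef1, beside 4.15% of all tested probes, with a median of 0.35 and summed levels of 3.93 to 4.80 in AD and 3.47 to 3.80 in Sham. Choroid plexus markers had a median of 2.03 with 0 of 9 called (limma; 5 at an unadjusted p under 0.05, and 0 by the methods' t-test with Benjamini-Hochberg adjustment) and summed levels of 81.1 to 136 in AD and 27.6 to 102 in Sham. Those of astrocytes (summed levels 173 to 208 in AD and 204 to 242 in Sham) and of microglia (21.9 to 27.0 and 27.9 to 29.1) had medians of -0.23 and 0.04 with 0 of 7 called in each list (limma; 1 each at an unadjusted p under 0.05, and 1 and 0 by the methods' t-test with Benjamini-Hochberg adjustment). Of 9 oligodendrocyte markers 5 were called higher and 0 lower by limma (1 called by the methods' t-test with Benjamini-Hochberg adjustment), with a median of 0.53, whereas their summed level was 96.3 to 115 in AD and 108 to 158 in Sham. Of 11 immediate early genes 5 were called higher and 1 lower (2 called by the methods' t-test with that adjustment). Their median was 0.54, with summed levels of 53.4 to 59.8 in AD and 39.3 to 47.2 in Sham. The counts of all these lists stand beside 8.40% of all tested probes called lower and 4.15% called higher. Excitatory, dentate granule and interneuron markers of the hippocampus were all well above background on at least 4 of 6 arrays, and of 6 markers of cerebellar granule cells Fat2 stayed near background on all 6 arrays, and 1 of the 5 tested, Cbln1, was lower. The part of these cell types in the values of Gabra3, Gabrb2, Slc12a5 and Slc12a2 was not tested.

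Across the 6 arrays the mean of the 7 subunits, each centred on its own mean, was -0.04, -0.02 and -0.08 in AD and 0.04, 0.02 and 0.09 in Sham. The subunits differed in their patterns, with a Pearson r between pairs of subunits over the 6 arrays of -0.80 (Gabrb1 and Gabrb2) to 0.72 (Gabra3 and Gabrb2). The genes whose brightest probe followed that mean most closely over the 6 arrays were Sipa1l2, Cfdp1, F8a1, Fhip1b and Dcaf5 (r of 0.995 to 0.998, n = 6 arrays that share 2 groups and 3 scans), out of all named genes tested, as a description only.

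**Figure D4:**
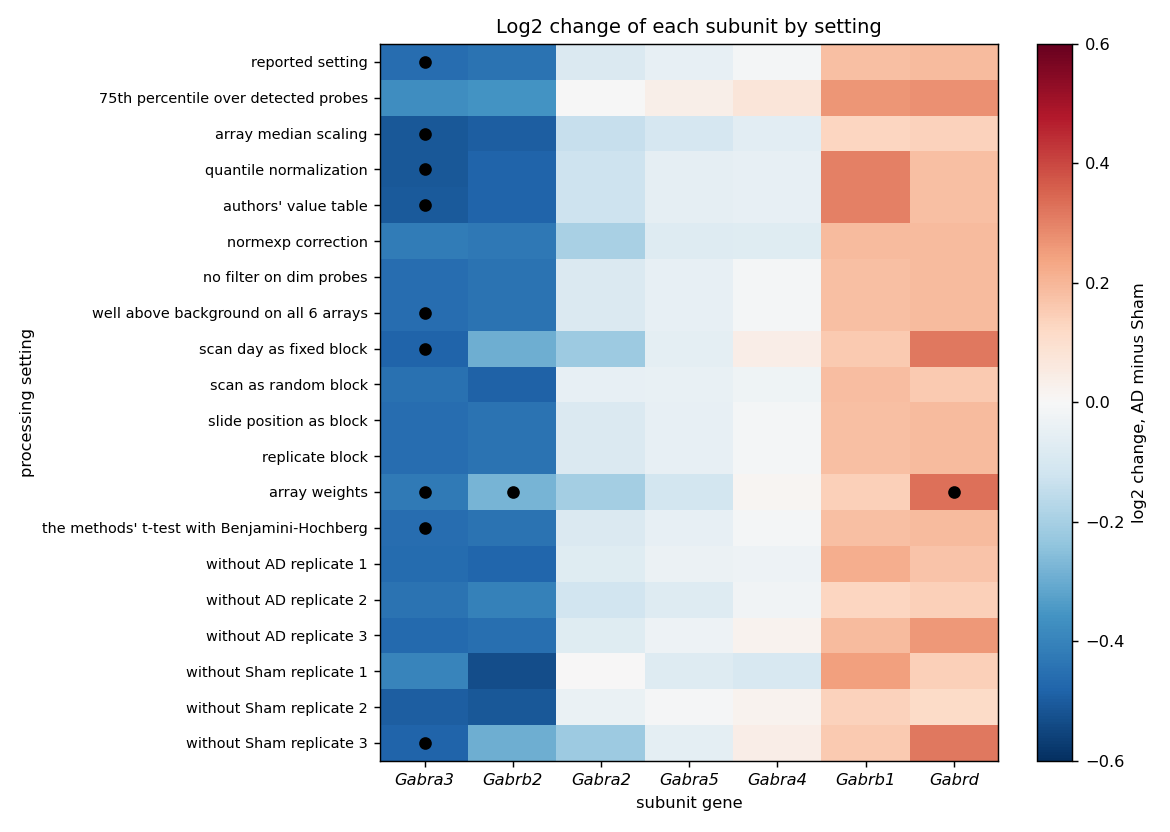
Colours give the log2 change (AD minus Sham) of the 7 subunits (horizontal axis) under the reported and 19 alternative settings (vertical axis), and black dots mark adjusted p-values under 0.05. Gabra3 and Gabrb2 are blue and Gabrb1 and Gabrd red in every row, and the dots sit on Gabra3 except under array weights, where Gabrb2 and Gabrd have one as well.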

How the data were processed

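Hippocampal mRNA was measured on single-colour Agilent rat arrays, 1 array per sample (3 AD, 3 Sham, grouped by the sample labels). The authors deposited scanner output of Agilent Feature Extraction 11.0.1.1, with a processed intensity per spot on a linear scale, background-subtracted and not normalized between arrays, and a table of log2 values whose scaling is not stated (column median 6.57 in all 6 arrays). In that deposited log2 table, the columns of AD replicates 2 and 3 matched the scanner arrays of AD replicates 3 and 2 (r of 0.994 and 0.999). Replicate numbers follow the scanner output.

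Controls and spots that the scanner software marked as outliers (400 to 559 on an array) were removed, spots of a probe were averaged on the log2 scale, and the 75th percentile of each array was subtracted. Saturated spots numbered 0. Probes well above background on at least 3 of 6 arrays and measured on all 6 were tested (22768) with lmFit and eBayes of limma 3.58.1 (R 4.3.3), two-sided, without covariates, with Benjamini-Hochberg adjustment and a threshold of 0.05. Symbols came from RefSeq transcript accessions without version (GRCr8), which matched 15252 of 26997 accessions and named 18005 probes (59.3%). The probes' positions and sequences were not used, so transcript variants were not separated.

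The subunits, gene lists and tests were chosen with earlier results of these data known. All 7 subunits, all tested members of the family, up to 4 called genes of each list (or up to 2 with the largest change) and the 5 genes most like the subunits' mean were eligible to be named. A comparison of each subunit with a reference subunit, and some genes of the lists, are not reported here. The step was tested on simulated data in which few of the probes changed, and most of those changes were not called. In the real data 12.6% of the tested probes were called, so the simulation does not measure how many real changes were missed. With 3 arrays per group, a gene that did not pass is not shown to be unchanged. Alternatives were other scalings, normexp correction (offset 50, on median signals), the log2 table, other filters, scan, scan day, slide position and replicate number as blocks, array weights, the methods' t-test and leaving out each array.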

Additional observations from a re-analysis of the deposited data

How the results depend on the processing

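The alternatives changed calls more than directions, but not all of them could change a direction. The other filters, the replicate and slide position blocks and the methods' t-tests keep the same difference of group means. The number of described subunits called lower was 1 as reported, 2 with array weights (which also called 1 higher), and 0 with the 75th percentile over detected probes, normexp correction, no filter on dim probes, the replicate block, scan as a random block, slide position as a block, and the methods' t-test with a fold of at least 2. It was 0 to 1 when single arrays were left out, with 1 only without Sham replicate 3. The number of other subunits called was 0 as reported, 1 with array weights and with scan day as a fixed block, and 0 to 1 when single arrays were left out, with 1 only without Sham replicate 3. Sham replicate 3 was the only array of its scan day. Scan day as a fixed block is therefore the same fit as leaving out that array, and their equal values are not separate results. Of the other GABA genes 6 were called as reported, 25 with array weights, 11 when a detection on every array was required, 2 without a filter, 1 by the methods' t-test with a fold of at least 2, 9 with scan day as a fixed block, 0 with the replicate block, scan as a random block and slide position as a block, and 0 to 9 when single arrays were left out. Of all probes 2858 were called as reported, 9872 with array weights, 4468 with scan day as a fixed block, 1763 under normexp correction, 352 without a filter, 1848 by the methods' t-test with Benjamini-Hochberg adjustment and 327 with a fold of at least 2. Leaving out single arrays gave 0 to 4468, the latter without Sham replicate 3. Limma called 0 probes with the replicate block, scan as a random block and slide position as a block, against 6482, 3672 and 6480 at an unadjusted p under 0.05. The labels do not say whether equal replicate numbers mark a pair. Deviations of equal numbers correlated at 0.028, 0.072 and 0.138. AD replicates 2 and 3 correlated best with the Sham array of equal number, and AD replicate 1 with Sham replicate 2 (0.064). Correlations this small, from so few arrays, cannot decide whether the arrays were paired.

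Small changes turned sign. Gabra4 gave 0.072 with the 75th percentile over detected probes, 0.012 with array weights and 0.038 with scan day as a fixed block, and -0.095 to 0.038 when single arrays were left out. Gabra5 gave 0.035 with the 75th percentile over detected probes. Gabra2 gave -0.22 to 0.00032 when single arrays were left out, the latter without Sham replicate 1. The cause was not tested. Normexp correction moved the median change of all probes from -0.01 to -0.15, so that relative to it Gabra3 stood at -0.27. The number of arrays limits the precision, and 7 of the 9 other subunits were too dim to compare.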
